A study of Mus musculus with 12 samples.

Results

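Reg lectins, serum amyloid A proteins and other antimicrobial and acute-phase products of the gut epithelium were described as a set of 10 genes: Reg3b, Reg3g, Reg4, Lcn2, Saa1, Saa2, Saa3, Ang4, Wfdc21 and Pigr. They were taken by name, through the accession of each probe, and are read by 12 probes; all 10 passed the filter on dim probes, among 23852 genes or transcripts tested. The names were selected on earlier results of these same arrays, the differences in level between the groups, so each value below describes its gene, and each adjusted p is that gene's own row of a fit over all genes. RNA from the whole colon of male C57BL/6J mice was hybridised to 12 single-colour Agilent arrays, 2 for each of 6 groups. The groups were ATF6aKO given DSS, ATF6aKO untreated (UT), ATF6bKO given DSS, ATF6bKO UT, wild type (WT) titled DSS and WT titled UT. ATF6aKO and ATF6bKO are knockouts of the genes of ATF6a and ATF6b, membrane proteins of the endoplasmic reticulum that release a transcription factor fragment when unfolded proteins accumulate. The agent was dextran sulfate sodium (DSS), which damages the lining of the colon, at 3% in the drinking water for 3 days. How the knockouts were made and the animals' ages are not given in the sources used here. Nothing says that both arrays of a group are from different mice, so the p-values reflect the spread among these samples alone, and it may be technical.

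For the 4 WT samples the labels disagree on treatment, with the titles giving one and the descriptions and treatment fields the other. WT is therefore called by its titles, and the sign of the WT difference is not taken as an effect of DSS. In addition, 8 of the 12 columns of the deposited value table hold the values of another sample's array, and among them the 4 WT columns hold those of the other WT group. Each genotype was on a slide of its own, so genotype and slide cannot be told apart in any knockout-to-WT difference. Levels are log2 of the processed signal minus log2 of the array's 75th percentile, so 0 is the level of a fairly bright probe; levels of different genes come from different probes and are not compared. Between 26951 and 31411 probes per array were well above background by the scanner program's own mark. All 10 epithelial markers and all 6 markers of colon identity were above background on every array. Detection does not mean equal levels. Of the 6 colon markers, 3 were higher and 2 lower than in WT in each knockout. Over all genes 21.5% were higher and 28.9% lower in ATF6aKO, and 24.5% and 26.1% in ATF6bKO. The Atf6b probe averaged -6.47 in ATF6bKO and -0.38 in WT (log2 difference -6.09, SE 0.64, adjusted p = 0.000222, at least 28.2-fold lower); it was well above background on 1 of the 4 ATF6bKO arrays. In ATF6aKO the same probe differed from WT by 0.34 (SE 0.64, adjusted p = 0.678). Atf6 was not analysed here, so the ATF6aKO label was not checked on its own target.

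Reg3b and Reg3g are C-type lectins secreted by the gut epithelium that bind bacteria, Reg3g being known to kill Gram-positive species, and Reg4 is a related lectin of secretory cells at the crypt base of the colon. Lipocalin 2 (Lcn2) withholds iron from bacteria by binding their siderophores and is made by epithelium and neutrophils alike. Serum amyloid A proteins (Saa1, Saa2, Saa3) are acute-phase lipid-binding proteins made in liver and, locally, in the gut. Ang4 is an angiogenin ribonuclease of secretory epithelial cells with antibacterial activity, Wfdc21 is a small secreted protein with a whey acidic protein domain, and Pigr is the receptor that carries polymeric IgA across the epithelium. Signals of interleukin 22, interleukin 6, interleukin 17 and tumour necrosis factor, through STAT3, C/EBP factors and NF-kB, are known to induce several of these genes.

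RefSeq's table of gene starts (build GRCm38.p6) held 9 of the 10 genes, with 250 bases before and 50 bases after each start. The promoters of both Reg3 lectins are shown because these genes had the lowest values of all genes in the knockouts relative to WT, and those of Saa1 and Saa2 because the near-identity of the gene copies bears on what their probes read. Capitals mark matches to a STAT motif (TTCNNNGAA), a C/EBP motif (TTNNGNAA) or an NF-kB motif, searched on both strands; no 2 matches overlap in these 4 windows. Reg3b lies at chr6:78370635-78370934, plus strand, and Reg3g at chr6:78468825-78469124, minus strand. Saa1 lies at chr7:46742931-46743230, minus strand, and Saa2 at chr7:46751583-46751882, plus strand.
Reg3b: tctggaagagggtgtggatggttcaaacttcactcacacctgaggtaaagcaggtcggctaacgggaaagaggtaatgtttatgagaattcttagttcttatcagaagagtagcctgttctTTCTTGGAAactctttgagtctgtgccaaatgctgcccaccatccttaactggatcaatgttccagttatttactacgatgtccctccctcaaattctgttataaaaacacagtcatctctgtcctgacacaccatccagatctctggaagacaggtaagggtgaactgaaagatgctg
Reg3g: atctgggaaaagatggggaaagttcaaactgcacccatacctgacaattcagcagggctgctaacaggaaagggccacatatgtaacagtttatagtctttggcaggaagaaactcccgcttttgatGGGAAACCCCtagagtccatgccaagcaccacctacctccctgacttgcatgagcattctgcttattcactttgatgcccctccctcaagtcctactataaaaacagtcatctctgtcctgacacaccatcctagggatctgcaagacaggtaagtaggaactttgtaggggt
Saa1: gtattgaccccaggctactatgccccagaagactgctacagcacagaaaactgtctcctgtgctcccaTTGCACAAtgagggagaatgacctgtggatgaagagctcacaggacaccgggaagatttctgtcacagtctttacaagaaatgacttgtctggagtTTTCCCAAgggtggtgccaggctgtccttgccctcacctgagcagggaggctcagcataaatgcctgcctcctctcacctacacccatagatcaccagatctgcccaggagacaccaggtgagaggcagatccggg
Saa2: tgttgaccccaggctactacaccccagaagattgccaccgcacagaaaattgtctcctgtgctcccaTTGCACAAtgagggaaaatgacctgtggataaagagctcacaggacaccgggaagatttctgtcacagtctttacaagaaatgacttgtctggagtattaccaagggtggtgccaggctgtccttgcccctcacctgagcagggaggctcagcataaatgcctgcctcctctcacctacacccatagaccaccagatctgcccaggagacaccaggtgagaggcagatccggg
The Reg3b window holds 1 STAT match and the Reg3g window 1 NF-kB match, and the pair are 69% identical over 310 aligned columns. The Saa1 and Saa2 windows are 95.3% identical over 301 aligned columns and share the C/EBP match TTGCACAA, while Saa1 holds a further one, TTTCCCAA. Over all 9 windows a STAT match was present in 3 (Reg3b, Ang4 and Pigr), a C/EBP match in 4 (Lcn2, Saa1, Saa2 and Saa3) and an NF-kB match in 1. Among 32851 promoters of the same length, 8.3% hold the STAT letters, 40.7% the C/EBP letters and 4.51% the NF-kB motif. The ATF6 letters TGACGTGG, present in 0.676% of all promoters, and the longer ER stress response element, in 0.119%, were found in 0 of the 9 windows. A match in such a short window is a description of the letters only.

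**Figure D1:**
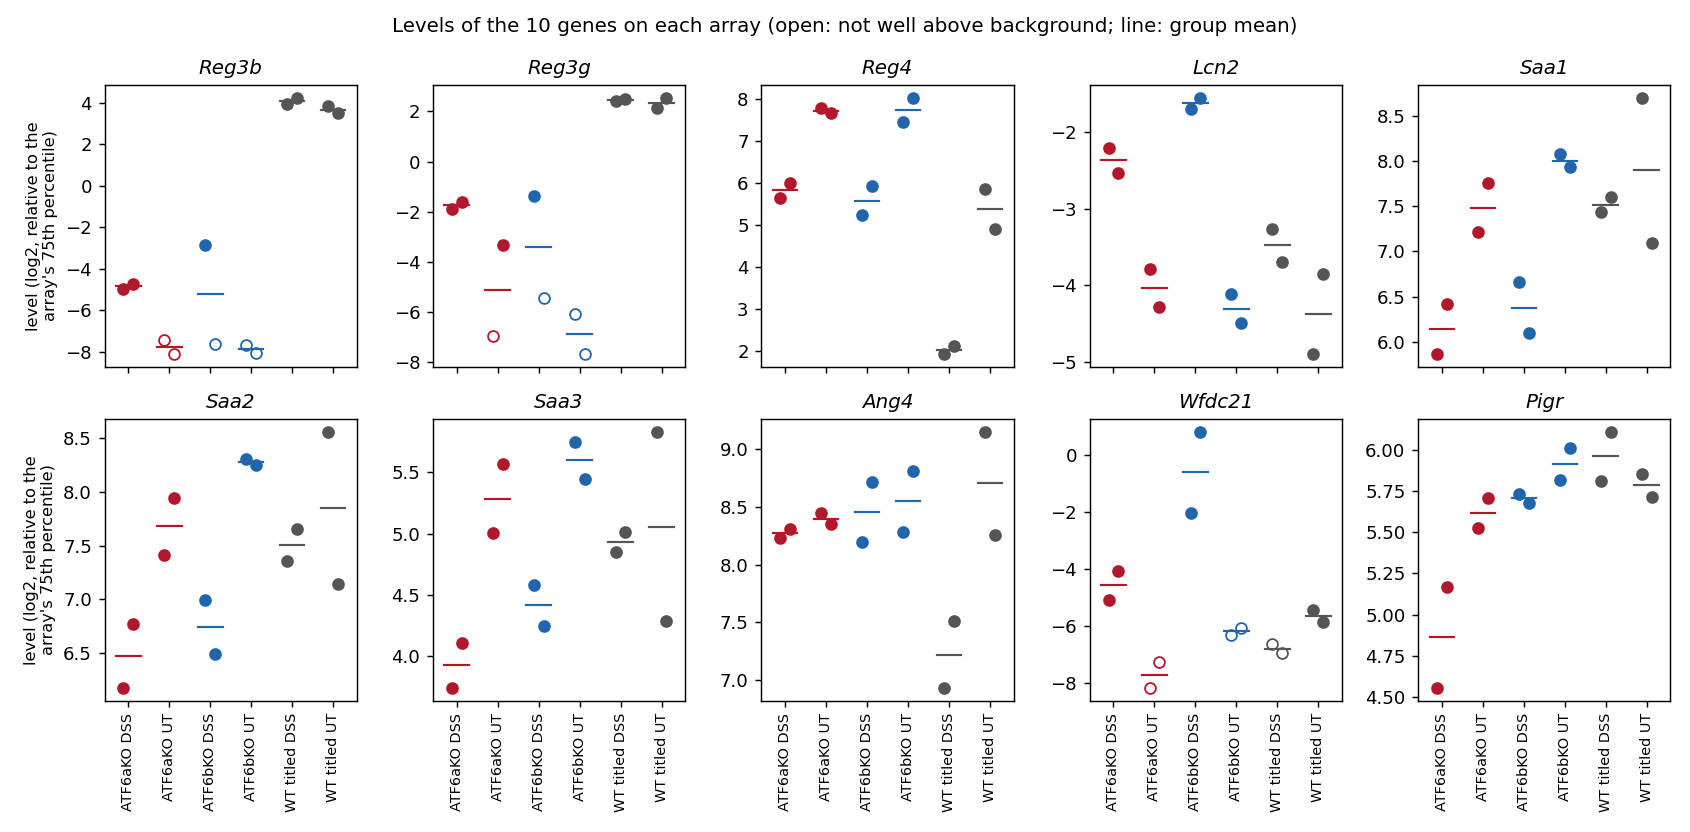
Level of each gene on each of the 12 arrays (log2 relative to the array's 75th percentile), by group; filled points were well above background, open points were not, and lines are group means of 2 arrays. Reg3b and Reg3g lie above 2 on all 4 WT arrays and below -1 on all 8 knockout arrays, and Wfdc21 is highest on the ATF6bKO DSS arrays, at -2.03 and 0.82.

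The plainest pattern was that both Reg3 lectins were bright on all WT arrays and far lower on all knockout arrays, where they were often not above background. Both lectins were well above it on the ATF6aKO DSS arrays and on the first ATF6bKO DSS array, as was Reg3g on ATF6aKO UT replicate 2. Reg3b had levels of -4.95 and -4.72 on the ATF6aKO DSS arrays, -7.41 and -8.09 on ATF6aKO UT, -2.83 and -7.62 on ATF6bKO DSS and -7.65 and -8.06 on ATF6bKO UT, against 3.92 and 4.24 on WT titled DSS and 3.82 and 3.49 on WT titled UT. Every knockout array lay far below every WT array, and only 2 of 4 ATF6aKO arrays and 1 of 4 ATF6bKO arrays were well above background. Averaged over both treatments, which makes the estimate independent of the WT labels, Reg3b was lower in ATF6aKO than in WT, with a log2 difference of -10.16 (SE 0.83, adjusted p = 9.37e-05), which is at least 631-fold. In ATF6bKO the difference from WT was -10.40 (SE 0.83, adjusted p = 7.79e-05), which is at least 425-fold. These bounds set each dim array at the higher of its own value and the array's lowest signal well above background, taken over all probes. That signal is not the detection limit of the single probe, so "at least" holds here and below under this rule only. ATF6aKO DSS, measured on both arrays, lay 416.5-fold below the mean of all 4 WT arrays.

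Reg3g followed with smaller differences. Its levels were -1.89 and -1.60 on ATF6aKO DSS, -6.96 and -3.34 on ATF6aKO UT, -1.40 and -5.44 on ATF6bKO DSS and -6.09 and -7.68 on ATF6bKO UT, against 2.43 and 2.48 on WT titled DSS and 2.12 and 2.55 on WT titled UT. Again no knockout array reached the lowest WT array. The difference from WT was -5.85 in ATF6aKO (SE 0.96, adjusted p = 0.00157, a factor of at least 49.1) and -7.55 in ATF6bKO (SE 0.96, adjusted p = 0.00047, a factor of at least 119.8). With levels below background raised to the lowest signal well above it, Reg3b was the lowest and Reg3g the second lowest of 23852 genes in each knockout relative to WT. Neither lectin differed between ATF6aKO and ATF6bKO by more than its spread (Reg3b 0.24, 95% interval -1.64 to 2.13, adjusted p = 0.883; Reg3g 1.70, 95% interval -0.48 to 3.89, adjusted p = 0.31). With normexp background correction, which compresses dim values, the Reg3b difference was -6.76 in ATF6aKO and -6.22 in ATF6bKO, still called. For Reg3g it was -4.52 in ATF6aKO and -4.73 in ATF6bKO, also called.

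Some markers of small intestine, where Reg3 lectins are abundant, moved with this difference. Of 10 markers fixed, 5 were found on the array and 3 passed the filter. Fabp2, a fatty acid binding protein of enterocytes, was lower than in WT, at -3.37 in ATF6aKO (adjusted p = 0.000159) and -3.63 in ATF6bKO (adjusted p = 0.000107). Mmp7, a protease of Paneth cells, was also lower, at -3.33 in ATF6aKO (adjusted p = 4.89e-05, a factor of at least 6.46) and -2.43 in ATF6bKO (adjusted p = 0.000144, a factor of at least 4.86); it was well above background on 1 of 4 ATF6aKO and 2 of 4 ATF6bKO arrays. Fabp6, the ileal bile acid binding protein, went the other way, higher by 1.99 in ATF6aKO (adjusted p = 0.000368, a factor of at least 3.78) and by 2.84 in ATF6bKO (adjusted p = 8.64e-05, a factor of at least 6.82), with 2 of 4 WT arrays well above background. The summed linear level of the list, in units of the array's 75th percentile, was 11.5 to 49.0 on the ATF6aKO arrays and 13.3 to 22.5 on the ATF6bKO arrays. It was 89.3 to 111.5 on WT titled DSS and 302 to 495 on WT titled UT. This sum is mostly Fabp2, whose mean level in WT was 7.62, against -3.02 for Mmp7 and -5.67 for Fabp6. It therefore adds little to the Fabp2 difference and does not show Fabp6. Between WT titled DSS and WT titled UT, Reg3b differed by 0.43 (adjusted p = 0.804) and Reg3g by 0.12 (adjusted p = 0.955), neither called. The defining apolipoproteins Apoa4 and Apoc3 did not pass the filter. Of 9 measured markers of absorptive colonocytes, 6 were lower and 2 higher in ATF6aKO against WT (median -0.75), and 6 lower and 1 higher in ATF6bKO (median -1.11), against 28.9% and 26.1% of all genes lower. The part of tissue composition in the Reg3 difference was not tested, and in bulk tissue fewer cells of a type and less RNA per cell cannot be told apart.

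Reg4 went in the opposite direction by genotype. It had levels of 5.65 and 6.01 on ATF6aKO DSS, 7.78 and 7.67 on ATF6aKO UT, 5.24 and 5.92 on ATF6bKO DSS and 7.46 and 8.03 on ATF6bKO UT, against 1.94 and 2.13 on WT titled DSS and 5.86 and 4.90 on WT titled UT. Reg4 was higher than in WT by 3.07 in ATF6aKO (SE 0.25, adjusted p = 9.37e-05) and by 2.95 in ATF6bKO (SE 0.25, adjusted p = 9.56e-05), although the knockout DSS arrays reached down into the range of WT titled UT. In a fit of 8 arrays with treatment as a term and WT read by its descriptions, the adjusted p was 0.0501 in ATF6aKO and 0.0728 in ATF6bKO. The 5 measured pancreatic acinar markers of 10 had a summed level of 56.1 to 100.7 on the knockout arrays against 26.2 to 60.2 on the WT arrays. Such a sum follows the brightest genes. Of the 5, 2 were higher and 1 lower in ATF6aKO against WT (median 0.20), and 1 higher and 0 lower in ATF6bKO (median 0.28). Over all genes 21.5% were higher and 28.9% lower in ATF6aKO, and 24.5% and 26.1% in ATF6bKO. The acinar enzymes Amy2a5, Cela2a, Cpa1 and Pnlip did not pass the filter, and the part of such cells was not tested.

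The other genotype differences were below 1 in log2, apart from Wfdc21. Lcn2 was higher by 0.72 in ATF6aKO (SE 0.25, adjusted p = 0.0368) and by 0.96 in ATF6bKO (SE 0.25, adjusted p = 0.0114). The excess lay in the DSS groups, with means of -2.37 in ATF6aKO and -1.62 in ATF6bKO. The UT means, -4.04 in ATF6aKO and -4.31 in ATF6bKO, lay between those of WT titled DSS (-3.48) and WT titled UT (-4.38). The ATF6aKO call was lost in 7 of 12 fits that left out 1 array, among them the fit without WT titled UT replicate 1 (0.46, adjusted p = 0.0841). With treatment as a term the Lcn2 calls were lost in both knockouts (adjusted p = 0.0863 and 0.11 by the titles, 0.331 and 0.327 by the descriptions), and with the replicate block in ATF6aKO (adjusted p = 0.0504). Of 10 measured neutrophil markers, 6 were higher and 2 lower in ATF6aKO against WT (median 0.84), and 5 higher and 2 lower in ATF6bKO (median 0.99). Of 9 macrophage markers, 6 were higher in each knockout. Over all genes 21.5% were higher and 28.9% lower in ATF6aKO, and 24.5% and 26.1% in ATF6bKO; the part of these cells in the Lcn2 difference was not tested. Pigr had levels of 4.55 to 5.71 on the 4 ATF6aKO arrays against 5.72 to 6.11 on the 4 WT arrays, with no overlap, and was lower, at -0.64 (SE 0.16, adjusted p = 0.0101, or 0.0753 and 0.0675 with treatment as a term by the titles and by the descriptions); in ATF6bKO it differed from WT by -0.06 (SE 0.16, adjusted p = 0.761). Saa1 was lower in ATF6aKO, at -0.90 (SE 0.33, adjusted p = 0.049), a call lost in 11 of 12 fits that left out 1 array, with the smallest difference without WT titled UT replicate 1 (-0.50, adjusted p = 0.0972). In the deposited value table Saa1 was at -0.24 (adjusted p = 0.532), with treatment as a term its adjusted p was 0.0942 by the titles and 0.181 by the descriptions, and with the replicate block 0.0617. The second Saa1 probe was at -0.65 (adjusted p over probes = 0.135). Wfdc21 was higher in ATF6bKO than in WT by 2.82 (SE 0.55, adjusted p = 0.00325), a factor of at least 5.69. With treatment as a term the adjusted p was 0.137 by the titles and 0.0687 by the descriptions. The excess lay in the ATF6bKO DSS arrays (mean -0.61). ATF6bKO UT had a mean of -6.18, against -6.79 in WT titled DSS and -5.64 in WT titled UT. Wfdc21 was lower in ATF6aKO than in ATF6bKO, at -2.75 (SE 0.55, adjusted p = 0.0282). That call was not kept without ATF6bKO UT replicate 2 (-2.69, adjusted p = 0.0932) or without any 1 of the 4 ATF6aKO arrays (adjusted p up to 0.0965). Ang4, Saa2 and Saa3 were not called in either knockout in the fit of all 12 arrays. In the deposited value table Ang4 was called (1.03 in ATF6aKO, adjusted p = 0.00277, and 1.18 in ATF6bKO, adjusted p = 0.00132), and with quantile normalization Saa2 in ATF6aKO (-0.68, adjusted p = 0.0417). Leaving out WT titled UT replicate 1, Ang4 was called in ATF6bKO (0.76, adjusted p = 0.0209). Leaving out WT titled UT replicate 2, Saa2 (-0.95, adjusted p = 0.00824) and Saa3 (-0.78, adjusted p = 0.0101) were called in ATF6aKO and Saa1 in ATF6bKO (-0.92, adjusted p = 0.00951).

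In all, 6 of the 10 genes were called in ATF6aKO against WT, where 50.4% of all genes tested were called; 2 were higher (21.5% of all genes) and 4 lower (28.9%). In ATF6bKO against WT 5 were called, where 50.6% of all genes were; 3 were higher (24.5%) and 2 lower (26.1%). Between the knockouts 1 of the 10 was called, against 5.52% of all genes, and it was lower (4.37%; higher 1.15%). These shares are near the background, so the counts are no result about the 10 genes. The balance of calls moves with the scaling: 5124 of 12021 calls in ATF6aKO were higher here, against 12955 of 14950 in the deposited value table and 6606 of 10905 with normexp. In ATF6bKO 5835 of 12065 were higher, against 13178 of 14692 and 12020 of 16239. Between the knockouts 275 of 1317 were higher, against 353 of 1067 with quantile normalization. That table shifts the median of all genes by 0.57 in ATF6aKO and 0.61 in ATF6bKO relative to WT, against -0.08 and -0.02 here; normexp shifts it by 0.12 and 0.35. Pigr is the call that turns with it, at 0.02 (adjusted p = 0.904) in ATF6aKO.

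**Figure D2:**
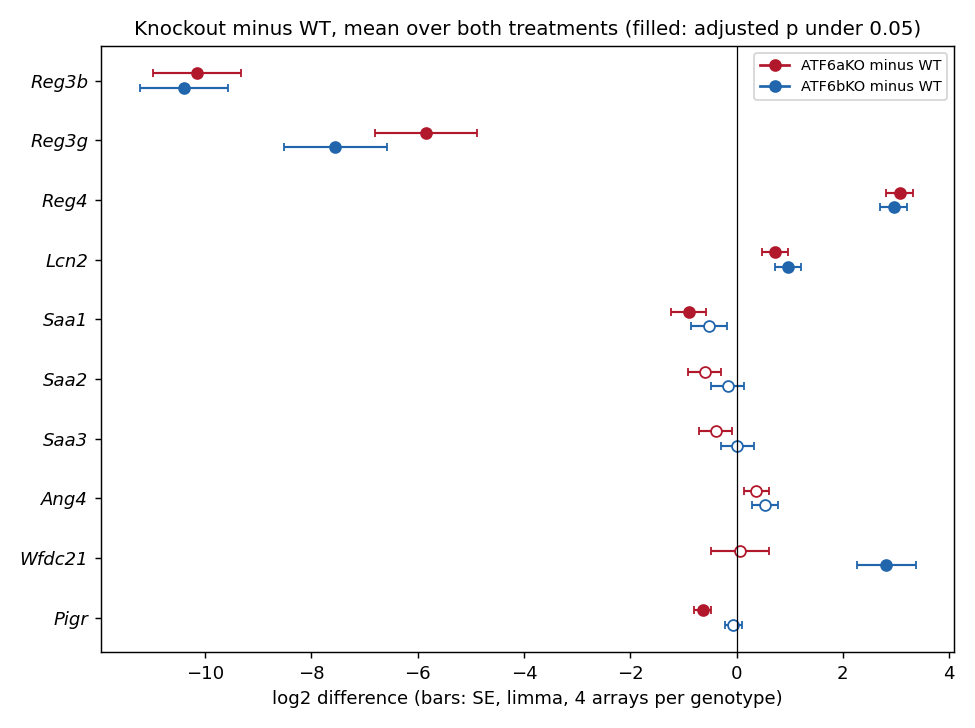
Knockout minus WT log2 differences of the 10 genes, each the mean over both treatments with its standard error (limma, 4 arrays per genotype); filled points had an adjusted p under 0.05. Reg3b and Reg3g lie between -10.40 and -5.85, and Reg4 lies at 3.07 and 2.95.

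Under DSS the genes split. Over both knockouts, with genotype as a term (8 arrays), 6 of the 10 were called where 29% of all genes were: Lcn2 and Wfdc21 rose, against 13.2% of all genes higher, and Reg4, Saa1, Saa2 and Saa3 fell, against 15.8% lower. With normexp the higher calls over all genes were 5071 of 8551, against 3145 of 6906 here, and the median of all genes was 0.11. All 6 calls of these genes held in each of the 8 fits that left out 1 array. The median difference of the 10 genes was -0.30, against -0.01 over all genes. The 10 names were selected on these same arrays, so these counts are no result about the set.

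Wfdc21 had the largest difference among the genes. Its levels were -5.07 and -4.08 on ATF6aKO DSS and -8.16 and -7.27 on ATF6aKO UT, and -2.03 and 0.82 on ATF6bKO DSS and -6.31 and -6.06 on ATF6bKO UT. The WT arrays held -6.64 and -6.94 (titled DSS) and -5.43 and -5.85 (titled UT). Wfdc21 was well above background on all 4 knockout DSS arrays and on none of the 4 knockout UT arrays. It rose by 4.36 over both knockouts (SE 0.75, adjusted p = 0.00736, a factor of at least 9.42). Within ATF6bKO the difference was 5.58 (SE 0.78, adjusted p = 0.00354, a factor of at least 32.2), with an adjusted p of 0.063 from the 4 ATF6bKO arrays alone. Within ATF6aKO it was 3.14 (SE 0.78, adjusted p = 0.0488, a factor of at least 2.75). The ATF6aKO call was lost in 10 of 12 fits that left out 1 array (adjusted p up to 0.217), kept only without ATF6bKO DSS replicate 1 or 2. With normexp the difference was 1.55 over both knockouts (adjusted p = 0.0267), 2.43 in ATF6bKO (adjusted p = 0.0114) and 0.67 in ATF6aKO (adjusted p = 0.435), where the call ended.

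Lcn2 was well above background on every array. It had levels of -2.20 and -2.54 on ATF6aKO DSS and -3.79 and -4.29 on ATF6aKO UT, -1.70 and -1.55 on ATF6bKO DSS and -4.12 and -4.50 on ATF6bKO UT, and -3.26 and -3.70 on WT titled DSS and -4.90 and -3.85 on WT titled UT. In each genotype the DSS or titled DSS arrays lay above the others. Lcn2 rose by 2.18 over both knockouts (SE 0.25, adjusted p = 0.0022), by 1.67 in ATF6aKO (SE 0.35, adjusted p = 0.0286) and by 2.68 in ATF6bKO (SE 0.35, adjusted p = 0.00272). The ATF6aKO call was lost without any 1 of its 4 arrays (adjusted p = 0.0818 to 0.194). With normexp the difference over both knockouts was 1.04 (adjusted p = 0.000118).

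The Reg3 lectins were not called with DSS in either knockout in the fit of all 12 arrays. Over both knockouts Reg3b differed by 2.77 (SE 0.92, adjusted p = 0.0611, a factor of at least 1.74) and Reg3g by 3.44 (SE 1.07, adjusted p = 0.0506, a factor of at least 5.96). The second ATF6bKO DSS array stood apart, at -7.62 for Reg3b and -5.44 for Reg3g, both not well above background, while the first was at -2.83 and -1.40. Without it Reg3b differed by 3.76 (adjusted p = 0.00809) and Reg3g by 4.24 (adjusted p = 0.0336). Without ATF6aKO UT replicate 2, Reg3g differed by 4.17 (adjusted p = 0.0368). Without either ATF6bKO DSS array, Reg3b was called within ATF6aKO (2.91, adjusted p = 0.00679), as it was from the 4 ATF6aKO arrays alone (adjusted p = 0.0464). Within ATF6bKO, without its DSS replicate 2, Reg3b differed by 5.02 (adjusted p = 0.0038), against 2.63 with it, and Reg3g by 5.49 (adjusted p = 0.0486), against 3.47. With normexp both were called over both knockouts, at 0.62 for Reg3b (adjusted p = 0.00417) and 1.39 for Reg3g (adjusted p = 0.00427). Normexp also called Reg3b within ATF6bKO (0.72, adjusted p = 0.0477) and Reg3g within ATF6aKO (1.58, adjusted p = 0.0264). With all 12 arrays in the fit the adjusted p was 0.0425 for Reg3b and 0.0331 for Reg3g. In WT by titles the differences were 0.43 for Reg3b (SE 1.17, adjusted p = 0.804) and 0.12 for Reg3g (SE 1.36, adjusted p = 0.955).

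Neutrophil markers moved with Lcn2, a granule protein of those cells, and with Wfdc21. Of 12 markers fixed, 10 passed the filter and 9 rose with DSS over both knockouts, where 13.2% of all genes did. Several were dim on the UT arrays, so their differences are bounds: Clec4e rose at least 8.83-fold (adjusted p = 0.00136), Mmp8, a collagenase of neutrophil granules, at least 2.38-fold (adjusted p = 0.00195) and the receptor Csf3r at least 4.41-fold (adjusted p = 0.00472). Clec4e and Mmp8 were well above background on 4 of 4 knockout DSS arrays and 0 of 4 knockout UT arrays. Mmp8, on 0 of 4 WT arrays as well, passed the filter only through the knockout DSS groups, so the filter favoured its rise. Cd177 fell by 1.14 (adjusted p = 0.00259). The granule genes Elane and Ngp did not pass the filter. The summed level of the list was 3.26 to 4.94 on the knockout DSS arrays, against 2.84 to 4.97 on the knockout UT arrays. This sum follows the brightest genes. Cd177, which fell, still averaged 0.37 on the knockout DSS arrays, against -2.68 for Clec4e, -3.43 for Csf3r and -4.58 for Mmp8. The sum therefore shows little of the rise of these dimmer genes. Of the macrophage markers 7 of 9 rose, and of the epithelial markers 4 of 10, against the same 13.2% of all genes. The part of infiltrating cells in the Lcn2 and Wfdc21 differences was not tested.

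The serum amyloid A genes fell. Saa1 had levels of 5.86 and 6.41 on ATF6aKO DSS and 7.22 and 7.76 on ATF6aKO UT, 6.66 and 6.09 on ATF6bKO DSS and 8.08 and 7.94 on ATF6bKO UT, and 7.44 and 7.60 on WT titled DSS and 8.71 and 7.10 on WT titled UT. All 4 knockout DSS arrays lay below all 4 knockout UT arrays, and the same was true of Saa2 and Saa3. Over both knockouts Saa1 fell by 1.49 on the log2 scale (SE 0.20, adjusted p = 0.0034), Saa2 by 1.37 (SE 0.20, adjusted p = 0.00429) and Saa3 by 1.28 (SE 0.17, adjusted p = 0.00331). Within single knockouts the differences lay between -1.63 and -1.19 and were not called in the fit of all 12 arrays, where the unequal WT titled UT arrays (8.71 and 7.10 for Saa1) enter the estimate of the spread. In limma fits without the WT arrays, all 3 genes were called in both knockouts. The adjusted p values were 0.0293 to 0.0487 in ATF6aKO and 0.0179 to 0.0275 in ATF6bKO. Calls over all genes were also more numerous there, at 2992 against 1513 in ATF6aKO and 4732 against 3064 in ATF6bKO. The gain is therefore not particular to these genes.

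The second Saa1 probe differed by -1.61 (SE 0.21) over both knockouts, against -1.49 for the probe used. Saa1 and Saa2 are near-identical copies whose older names were exchanged, and a probe of one may read both, so their separate values are uncertain. Centred on their own means, Saa1 and Saa2 differed by a root mean square of 0.17 over the 12 arrays and Saa2 and Saa3 by 0.18, the closest pairs among the 10 genes.

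Reg4 fell with DSS in both knockouts. The difference was -1.89 in ATF6aKO (SE 0.35, adjusted p = 0.0209), -2.17 in ATF6bKO (SE 0.35, adjusted p = 0.00657, or 0.0507 from the 4 ATF6bKO arrays alone) and -2.03 over both (SE 0.20, adjusted p = 0.00165). The ATF6aKO call did not hold without any 1 of the 4 ATF6aKO arrays (adjusted p = 0.0639 to 0.153). Of 8 measured markers of goblet and deep crypt secretory cells, which contain Reg4, 3 fell (15.8% of all genes did) and 0 rose (13.2% of all genes) over both knockouts, with a median of 0.05; the part of such cells was not tested. WT titled DSS was also lower than WT titled UT, at -3.35 (SE 0.35, adjusted p = 0.00142), a difference whose sign would turn under the other WT labels. Levels in the knockout DSS groups were 5.24 to 6.01, all above the 1.94 and 2.13 of WT titled DSS.

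Ang4 and Pigr showed the smallest DSS differences. Ang4 had levels of 8.23 and 8.31 on ATF6aKO DSS, 8.45 and 8.35 on ATF6aKO UT, 8.20 and 8.71 on ATF6bKO DSS and 8.29 and 8.81 on ATF6bKO UT, and the difference over both knockouts was -0.11 (95% interval -0.48 to 0.26, adjusted p = 0.627). In WT it was lower in titled DSS, at 6.93 and 7.51 against 9.15 and 8.26 in titled UT (difference -1.49, SE 0.34, adjusted p = 0.0129), a call lost without WT titled DSS replicate 1 (-1.20, adjusted p = 0.0836) or WT titled UT replicate 1 (-1.04, adjusted p = 0.0601). Pigr differed by -0.48 over both knockouts (SE 0.18, adjusted p = 0.0814; called with normexp, adjusted p = 0.0202, and with quantile normalization, adjusted p = 0.0341) and by -0.76 in ATF6aKO (SE 0.22, adjusted p = 0.0794). Ang4 belongs to a family of similar ribonuclease genes, and its nearest gene by pattern was the family member Ang (root mean square difference 0.14), so cross-reading by the probes was not separated.

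Within single genotypes, 3 of the 10 genes were called in ATF6aKO, where 6.34% of all genes were, 2 of them higher (2.9%) and 1 lower (3.45%). In ATF6bKO 3 were called (12.8% of all genes), 2 higher (5.65%) and 1 lower (7.19%); with normexp the higher calls over all genes there were 987 of 1813, against 1348 of 3064 here. In WT by titles 2 were called (31.8%), 0 higher (14.9%) and 2 lower (16.9%). Lcn2 and Wfdc21 were the higher and Reg4 the lower calls in each knockout, and Reg4 and Ang4 were lower in WT titled DSS. As the names were selected on these arrays, the counts within genotypes are no result about the set either.

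**Figure D3:**
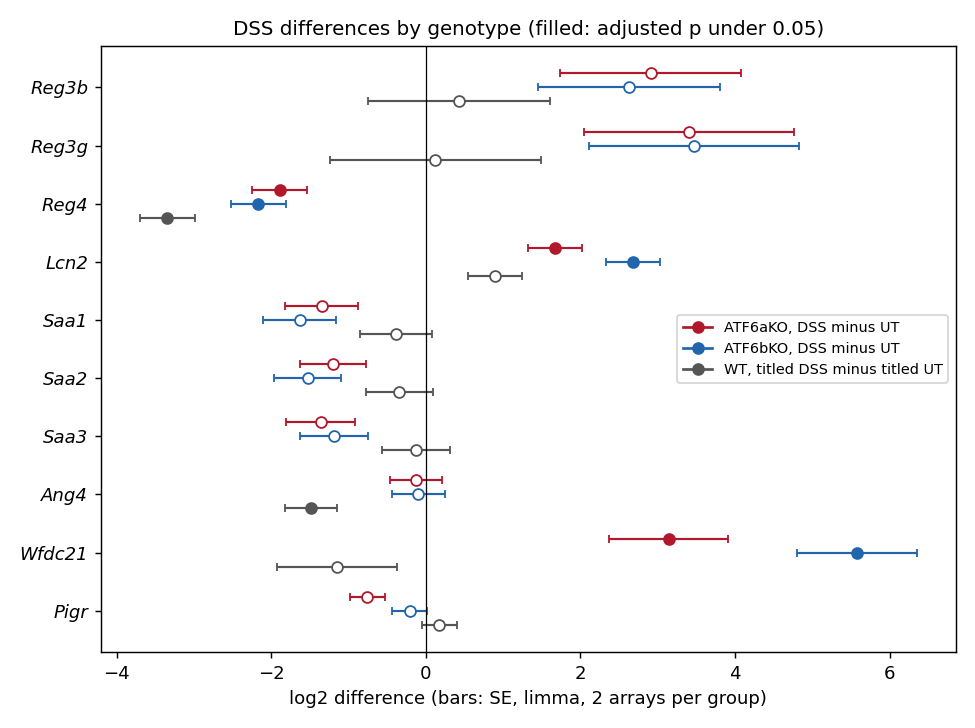
DSS minus UT log2 differences of the 10 genes in ATF6aKO and ATF6bKO, and titled DSS minus titled UT in WT, with standard errors (limma, 2 arrays per group); filled points had an adjusted p under 0.05. Wfdc21 lies at 3.14 and 5.58 in the knockouts and at -1.15 in WT by titles, and Reg4 is below 0 in all 3.

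Whether the DSS differences themselves differed between genotypes was tested directly. Between ATF6aKO and ATF6bKO, 0 of the 10 and 0 of all 23852 genes were called by limma (0%), with 1899 genes at an unadjusted p under 0.05. Wfdc21 came to -2.44 (95% interval -4.92 to 0.05, adjusted p = 0.635) and Lcn2 to -1.01 (95% interval -2.13 to 0.10, adjusted p = 0.664), so the DSS differences of these genes were not shown to differ between the knockouts, over wide intervals. Against WT by titles, 1 of the 10 was called for ATF6aKO (7.85% of all genes), in the higher direction (3.63%; lower 4.22%). For ATF6bKO 2 were called (14.9%), both higher (6.33%, with 8.61% lower). For names selected on these arrays such counts are no result about the set. Wfdc21 had a larger DSS difference by 6.72 in ATF6bKO (SE 1.096, adjusted p = 0.0113) and by 4.29 in ATF6aKO (SE 1.096, adjusted p = 0.0489), and Lcn2 by 1.79 in ATF6bKO (SE 0.49, adjusted p = 0.0439). The Wfdc21 value in ATF6aKO includes levels not well above background on all ATF6aKO UT and WT titled DSS arrays; with those raised to the lowest signal well above background, the DSS difference was 1.46 in ATF6aKO and -0.52 in WT by titles. Its call was lost with normexp (0.87, adjusted p = 0.436), no filter (adjusted p = 0.0905), quantile normalization (adjusted p = 0.0576), the deposited value table (adjusted p = 0.056) and the mean of a gene's probes (adjusted p = 0.0513). It also missed the threshold in 9 of 12 fits that left out 1 array (adjusted p = 0.0655 to 0.136). The Lcn2 value missed it in 10 of 12 such fits (adjusted p = 0.0594 to 0.13), with the replicate block (adjusted p = 0.0605), with no filter (adjusted p = 0.0791) and in the value table (adjusted p = 0.0659); with normexp it was 0.93 (adjusted p = 0.014).

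The WT sign depends on the titles. Under the other reading of the WT labels, the ATF6bKO calls were kept, with Wfdc21 at 4.43 (adjusted p = 0.0183) and Lcn2 at 3.58 (adjusted p = 0.00193). In ATF6aKO, Lcn2 was then called at 2.57 (adjusted p = 0.00793) and Wfdc21 was not, at 1.99 (adjusted p = 0.198). Reg4 and Ang4 changed sign. The Reg4 response difference was then -5.24 in ATF6aKO (adjusted p = 0.000951) and -5.51 in ATF6bKO (adjusted p = 0.000601), where by the titles the values were 1.46 (adjusted p = 0.0974) and 1.18 (adjusted p = 0.133).

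Genes with roles next to these were taken as 4 lists, read here over both knockouts with DSS. The lists were chosen with earlier results of these arrays known, so their counts are descriptions and no independent evidence. Of 25 other gut antimicrobial genes, 19 were measured, 10 rose and 0 fell (median 0.62); of the subunits of calprotectin, S100a9 rose by 5.96 (SE 0.69, adjusted p = 0.00233) and S100a8 at least 55.4-fold (adjusted p = 0.00425), with 2 of 4 UT arrays well above background. Lactoferrin (Ltf) rose at least 13.4-fold (adjusted p = 0.0126), with 3 of 4 UT arrays well above background. Of 20 other acute-phase genes, 15 were measured, 9 rose and 0 fell (median 1.36), with Lrg1 at 2.72 (SE 0.18, adjusted p = 0.000806), Serpina3n at 2.56 (SE 0.36, adjusted p = 0.00374) and Lbp, which binds bacterial lipopolysaccharide, at 2.56 (SE 0.11, adjusted p = 0.000243). The serum amyloid A genes, acute-phase genes themselves, went the other way. Of 26 cytokine and receptor genes, 22 were measured, 13 rose and 0 fell (median 0.78), against 13.2% of all genes higher.

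Il22, a cytokine known to induce Reg3 lectins and Lcn2, rose at least 3.78-fold (adjusted p = 0.00157), with 4 of 4 knockout DSS arrays and 0 of 4 knockout UT arrays well above background. It passed the filter only through the knockout DSS groups, so the filter favoured its rise. Il6 rose at least 11.7-fold (adjusted p = 0.00307), and Tnf, measured on all 8 arrays, rose by 3.22 (SE 0.33, adjusted p = 0.00175). Against WT over both treatments, Il22 was well above background on 2 of 4 arrays of each knockout and on 1 of 4 WT arrays, and its adjusted p was 0.746 in ATF6aKO and 0.0356 in ATF6bKO, where it was at least 1.39-fold higher. Il17a was not analysed here. The 16 genes of IgA production and plasma cells, which make the cargo of Pigr, were all measured. Over both knockouts 1 rose, below the 13.2% of all genes, namely Prdm1, by 1.24 (SE 0.28, adjusted p = 0.0186). Jchain, the joining chain that Pigr recognises, differed by 0.67 (SE 0.38, adjusted p = 0.226). In ATF6bKO alone 6 rose and 0 fell (median 1.29), where 5.65% of all genes were higher and 7.19% lower. In ATF6aKO alone 0 rose and 0 fell (median -0.07), where 2.9% were higher and 3.45% lower. The difference between these responses was called for 0 of the 16. In WT by titles 0 were higher and 3 lower (median -0.82), where 16.9% of all genes were lower. In ATF6aKO against WT, 9 of the 16 were higher and 0 lower (median 1.04, against -0.08 over all genes), where 21.5% of all genes were higher and 28.9% lower, beside the lower Pigr there.

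**Figure D4:**
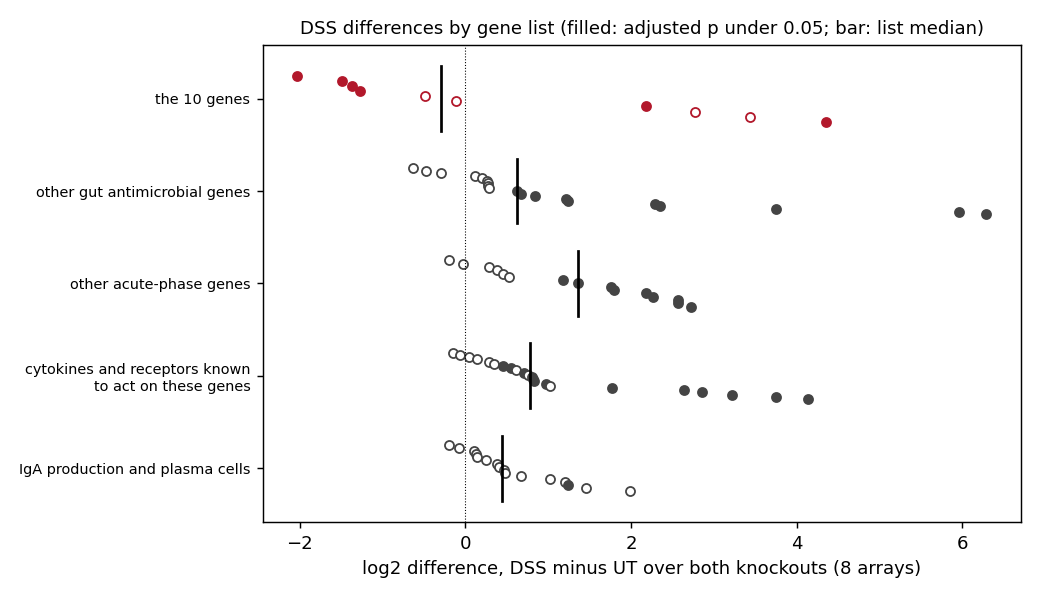
DSS minus UT log2 difference over both knockouts (8 arrays) of each measured gene of the set and of the 4 lists; filled points had an adjusted p under 0.05 and bars are list medians. The set spreads from -2.03 to 4.36 around a median of -0.30, while the called genes of the 4 lists all lie above 0.

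Genes whose pattern over the 12 arrays was most like each member's were named by the smallest root mean square difference of centred levels, as a description in which all genes share the same arrays and slides. For Wfdc21 these were Ltf (0.88) and Lgals7 (0.90), and for Lcn2 Mab21l3 (0.27) and Bst1 (0.32). Reg4 was closest to Pnliprp1 (0.46) and Pnliprp2 (0.61), 2 genes of the pancreatic lipase family. The Reg3 lectins had no close match: the nearest were Adam18 (2.81) and Ugt2b5 (2.95) for Reg3b and Prkg2 (2.32) and Sptssb (2.35) for Reg3g, against standard deviations of 5.30 and 3.87 of the lectins themselves. Pigr was nearest to Pced1a and Acss1 (0.16 each), Ang4 after Ang to Rpl30 (0.20), Saa1 to Kbtbd3 and Ogt (0.33 each), and Saa2 and Saa3 both to Grhl2 and 4833420G17Rik (0.28 to 0.30).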

How the data were processed

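Per the file headers, the authors quantified the scanned arrays with Agilent Feature Extraction; the submitters' processing notes name version 10.7.1.1. Intensity values per spot make up the deposited scanner files: a processed signal, background-subtracted by that program and not scaled between arrays, and median spot and background signals. The deposited value table holds log2 values that are centred on each probe's mean in 41267 of 41268 probes (tolerance 0.001), from scaling that stays unknown; its columns were used as an alternative, each taken as the array whose values it matches (column medians -0.47 to 0.24).

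Control spots and outlier-flagged spots (54 to 108 per array) were left out, leaving 41174 probes, of which 56.8% were named through unversioned RefSeq accessions. The log2 processed signal minus the array's log2 75th percentile is the level; probes well above background on both arrays of at least 1 group were kept, and the probe with the highest mean stood for its gene. Differences were tested with limma 3.58.1 in R 4.3.3, with p-values adjusted over 23852 genes (Benjamini-Hochberg, threshold 0.05): the 6 group means of all 12 arrays in 1 fit, except for DSS over both knockouts, which used 8 arrays with genotype as a term. "Rose", "fell", "higher" and "lower" follow that threshold for single genes. The code was tested on simulated data. Normexp (offset 50) used the median signal in place of the mean signal, which was not used here. No array spot of the 10 genes was saturated, and the number of arrays limits the precision.

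The members and lists were chosen with earlier results of these data known. Named genes are all 10 members, Atf6 and Atf6b, the 2 genes most alike in pattern to each member, up to 3 genes each way of each list by their DSS difference over both knockouts, and Il22, Il17a and Jchain always, of which Atf6 and Il17a were not analysed here; neutrophil and small intestine markers were named beside the results they move with, after their values were seen. Promoters were aligned with Biopython 1.88.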

Additional observations from a re-analysis of the deposited data

Results flagged for a closer look

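Wfdc21 had a DSS difference in ATF6bKO that exceeded the one in WT by titles by 6.72 (limma test of the difference between the responses, adjusted p = 0.0113), called under all 7 alternatives that kept every array and in each of the 12 fits that left out 1. In ATF6aKO the excess over WT was 4.29 (adjusted p = 0.0489). That call was lost with normexp (0.87, adjusted p = 0.436), no filter (0.0905), quantile normalization (0.0576), the deposited value table (0.056), the mean of a gene's probes (0.0513) and the other WT reading (1.99, adjusted p = 0.198), and in 9 of 12 fits that left out 1 array. Both WT titled DSS arrays were not well above background for Wfdc21, where the WT difference was -1.15 (adjusted p = 0.285). Lcn2 had a DSS difference in ATF6bKO that exceeded the one in WT by titles by 1.79 (adjusted p = 0.0439), a call lost in 10 of 12 fits that left out 1 array and larger under the other WT reading (3.58, adjusted p = 0.00193).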

How the results depend on the processing

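Of the alternatives, those that did not leave out an array kept direction and side of the threshold in 518 of 604 values, and those that left out 1 array in 725 of 836. Counts of the 10 genes called moved by over 1.5 times as follows; the causes were not tested, except where fewer arrays or more genes enter by construction. With normexp, 6 were called in ATF6bKO with DSS and 3 in ATF6aKO against ATF6bKO. Over all genes normexp called 1813 and 10418 there, against 3064 and 1317 in the main fit. With quantile normalization, 1 was called in ATF6aKO with DSS, 5 in ATF6bKO, and 4 in the response of ATF6bKO minus WT. Over all genes that setting called 1516, 3454 and 4129, against 1513, 3064 and 3563 in the main fit. With no filter the counts were 1 in ATF6aKO with DSS, 0 and 1 in the responses of ATF6aKO and ATF6bKO minus WT, and 0 between the knockouts. With the strict filter they were 0 and 1 in those responses, 2 in ATF6bKO against WT and 0 between the knockouts. Over all genes the strict filter gave 2960 and 3856, 9863 and 1305 there. The mean of a gene's probes gave 0 for ATF6aKO minus WT, and the deposited values gave 0 and 1 in the 2 responses. Over all genes the mean of a gene's probes gave 1696, and the deposited values 1365 and 2721. Fits of only the 4 arrays compared gave 1 in WT by titles, and fits without the WT arrays 5 in ATF6aKO and 6 in ATF6bKO with DSS. The other WT reading gave 3 and 6 in the 2 responses against WT. With treatment as a term in 8 arrays, 3 were called in each knockout against WT by the titles and 2 by the descriptions, and 0 between the knockouts. By the titles, 8399 of all genes were called there in ATF6aKO against WT. Calls over all genes in the other settings follow below. The counts of the 10 genes are no result about the set.

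The replicate numbers did not pair the samples (correlations of deviations -0.221 to 0.142 over 15 pairs of groups, 2 of them over 0.1). The replicate block gave 1 called gene, not 2, in the response of ATF6bKO minus WT, where Lcn2 was lost (adjusted p = 0.0605). It also ended the calls of Lcn2 (adjusted p = 0.0504) and Saa1 (adjusted p = 0.0617) in ATF6aKO against WT.

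Leaving out each array in turn changed how many genes of the set were called in every comparison but the response difference between knockouts, which had 0. The number called over all genes moved in the same fits, in every comparison. The changes are therefore no result about the set. Each such fit leaves 1 array in a group, so the counts are not listed.

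Signs turned for small differences, with the lowest and highest value over the fits that left out 1 array. In ATF6bKO against WT these were -0.376 and 0.400 for Saa3 (-0.0786 with normexp), -0.520 and 0.186 for Saa2, and -0.137 and 0.013 for Pigr. In ATF6aKO against WT they were -0.178 and 0.316 for Wfdc21. In WT by titles they were -0.0891 and 0.335 for Reg3g, -1.19 and 0.421 for Saa1, -1.05 and 0.362 for Saa2 and -0.902 and 0.651 for Saa3, the highest of each Saa gene and the lowest of Reg3g without WT titled UT replicate 1 and the opposite ends without replicate 2; quantile normalization gave 0.29, 0.34 and 0.17 for Saa1, Saa2 and Saa3. For Ang4 with DSS in ATF6bKO they were -0.360 and 0.170. In the value table, whose median over all genes is shifted by 0.57 in ATF6aKO and 0.61 in ATF6bKO, Pigr, Saa2 and Saa3 were at 0.0231, 0.0584 and 0.27 in ATF6aKO against WT, and Pigr, Saa1 and Saa2 at 0.58 (adjusted p = 0.00874), 0.13 and 0.48 in ATF6bKO. Under the other WT reading the responses against WT were -1.61 in ATF6aKO and -1.58 in ATF6bKO for Ang4, and -5.24 and -5.51 for Reg4.

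Calls over all genes moved by over 1.5 times as follows. In ATF6aKO with DSS, 1513 were called here, 705 with no filter, 835 from the 4 arrays alone and 2992 without the WT arrays. In ATF6bKO with DSS there were 3064, against 1813 with normexp, 1788 from the 4 arrays alone and 4732 without the WT arrays. WT by titles had 7581, or 693 from its 4 arrays. Between the knockouts there were 1317, against 10418 with normexp, 614 with no filter, 2896 without the WT arrays and 2232 with treatment as a term. The responses against WT had 1872 for ATF6aKO (293 with no filter, 2960 with the strict filter, 6676 under the other WT reading) and 3563 for ATF6bKO (1584 and 6963 with no filter and the other reading). Against WT, with treatment as a term, ATF6aKO had 5946 by the descriptions where 12021 were called here, and ATF6bKO 7013 by the titles and 5166 by the descriptions where 12065 were. The response difference between the knockouts had 0 calls here, 5 with quantile normalization, 1 in the value table and 4 without the WT arrays.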
